A study of Rattus norvegicus with 8 samples.

Results

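The 9 genes of the oligodendrocyte lineage Mbp, Mog, Mag, Mobp, Cnp, Olig1, Olig2, Sox10 and Pdgfra were followed in the hippocampal dentate gyrus (DG) of rats after status epilepticus (SE). They were chosen by name as the 13 non-control spots whose gene name in the scanner files is one of the 9, out of 43379 non-control spots with 35250 gene names. All samples came from adult female Sprague-Dawley rats of 150 to 200 g that had been ovariectomized (OVX) 1 week before hormone replacement and had undergone SE induced by kainic acid. The COS group (castrated, oil, SE) held 4 rats injected with oil, and the CES group (castrated, estradiol, SE) held 4 rats given β-estradiol (E2) in the form of estradiol benzoate. According to the sample records, E2 was given as 4 doses of 2 µg at intervals of 24 h, of which 2 preceded and 2 followed SE, kainic acid was given at 16 mg/kg intraperitoneally, and pentobarbital ended SE after 5 h. The methods of the study differ from these records on the dose of kainic acid, the drug that ended SE and the timing of E2, and they give more than 1 time of tissue collection, so that the interval between SE and tissue collection is not settled here. Non-SE rats were not analysed here, and the comparison is therefore between E2-replaced and oil-injected rats that all had SE.

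Oligodendrocytes wrap axons of the central nervous system in myelin, a stack of membrane held together by a small set of abundant proteins. They arise from precursor cells that carry the receptor for platelet-derived growth factor A and that persist in the adult hippocampus. The transcription factors OLIG2, OLIG1 and SOX10 set and maintain the lineage, and SOX10 is required for the expression of myelin genes at maturation.

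Total RNA of the DG was labeled with Cy3 or Cy5 and hybridized to Agilent arrays on which each array carried 2 differently labeled rats of the same group. The 60-base probes were placed by the files on rn4, and whether they lie in an exon, intron or UTR was not assigned here because no rn4 annotation was used. Mag has a single probe, which starts at base 1970 of its transcript and lies on chromosome 1 from 85954956 to 85955015, minus strand. Cnp has a single probe at base 1202, on chromosome 10 from 89524880 to 89524939. Olig2 and Olig1 have 1 probe each on chromosome 11, from 31206908 to 31206967 and from 31246213 to 31246272. Sox10 is read by 1 probe on chromosome 7 from 117138840 to 117138899, minus strand, and Pdgfra by 1 probe on chromosome 14 from 35369708 to 35369767, minus strand.

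The genes with more than 1 probe allow a check within the gene. Mbp has 2 probes on chromosome 18, at bases 391 and 740 of the transcripts, and the first spans 1939 bases of the genome (79044276 to 79046214), so that it crosses a splice junction. Mog has 2 probes on chromosome 20, from 1610278 to 1610337 and from 1611776 to 1611835. Mobp has 3 probes on chromosome 8, of which the one at base 74 spans 12177 bases of the genome (125123469 to 125135645). The probe sequences of 4 members are shown because they are what the RNA was read with, for the gene with the largest difference between the groups (Cnp), for 2 proteins of the myelin surface (Mag and Mog, the latter by the probe at base 696) and for the dimmest member (Olig2). They run 5′ to 3′ as in the files.
Cnp: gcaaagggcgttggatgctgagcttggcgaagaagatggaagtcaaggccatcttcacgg
Mag: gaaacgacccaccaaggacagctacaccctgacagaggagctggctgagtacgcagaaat
Mog: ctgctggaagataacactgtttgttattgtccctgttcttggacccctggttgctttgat
Olig2: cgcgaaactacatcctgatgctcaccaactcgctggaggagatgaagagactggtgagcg

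All 13 member spots were valid in all 8 rats, meaning that the foreground was at least 2 times the local background, and none was saturated or marked as an outlier. All of them except the spot of Olig2 were well above background by the scanner software in every rat. Olig2 was well above background in 3 of 4 COS and 2 of 4 CES rats, with a foreground of 2.80 to 8.30 times background, and was the only member measured close to the limit. Levels below are log2 of the background-subtracted intensity over the median of all valid spots of that channel, so that 0 is the median spot, and they are compared between rats for 1 gene but not between genes. Of the dentate granule cell markers, C1ql2, Calb1, Dsp, Neurod1 and Rfx3 were quantified, while Prox1 was valid in 6 rats and well above background in none.

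Over the 21372 genes quantified in all rats, limma with the Benjamini-Hochberg threshold of 0.05 called 1238 genes (5.79%) higher in CES and 6054 (28.3%) lower, with a median difference over all genes of −0.25 on the log2 scale. This split depends on the scaling, since after loess and Aquantile normalization 3045 genes (14.2%) were called higher and 1896 (8.87%) lower and the median was 0.055. For that reason differences are also given as their distance from the median gene. The 4 arrays lay on a single slide, and array and group cannot be told apart except through the spread between arrays, because each array held 1 group. Each sample was a separate rat, and the p-values measure the spread between rats.

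Sox10 was the only member called lower in the main test, by 0.65 on the log2 scale or 1.57-fold, and no member was called higher. It was not called under 4 other scalings, which were loess and Aquantile, quantile normalization, scaling over shared valid spots and the deposited log2 values. In the main test 1 of 9 members was called lower, where 28.3% of all genes were, and 0 of 9 higher, where 5.79% were, so that the share called among the members was no larger than the background. The genes of the myelin sheath other than Mag had positive differences, Cnp 0.71, Mobp 0.23, Mbp 0.21 and Mog 0.21, while Mag, the transcription factors and Pdgfra had negative ones. The median difference of the 9 members was −0.12, or 0.14 above the median of all genes. Because the tissue was measured in bulk, fewer cells of a type and less RNA per cell cannot be told apart in any of these values.

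**Figure D1:**
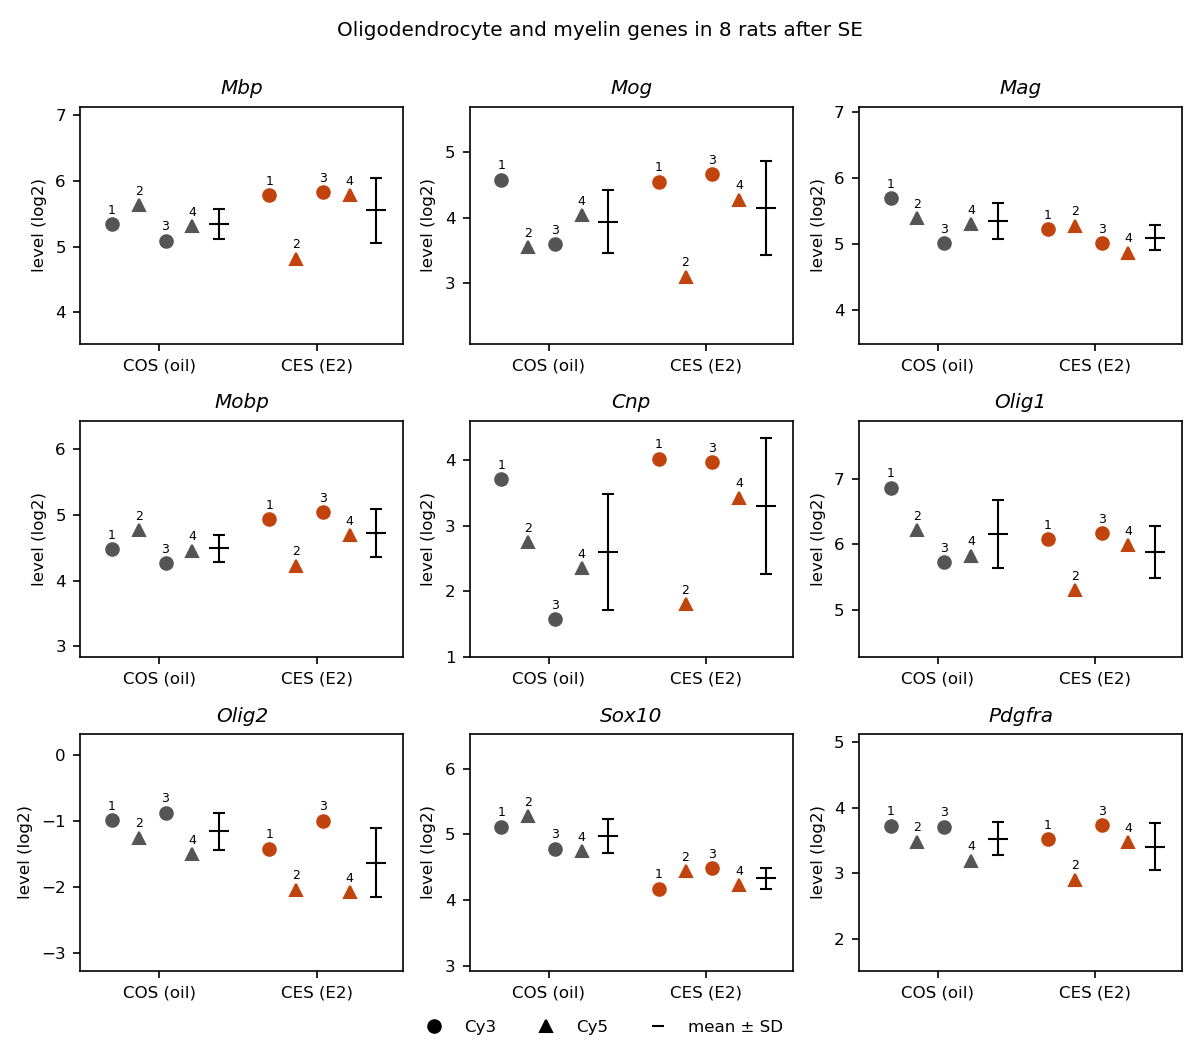
Log2 level (vertical axis, relative to the median valid spot, each panel spanning the same number of log2 units) of the 9 members in the 4 COS and 4 CES rats, with the replicate number above each point, circles for Cy3 and triangles for Cy5, and bars for the mean ± SD of 4 rats. With this scaling Sox10 is the only panel in which the groups do not overlap, and CES replicate 2 is the lowest CES rat for Mbp, Mog, Mobp, Cnp, Olig1 and Pdgfra.

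Sox10, which encodes the transcription factor needed for terminal oligodendrocyte differentiation, had log2 levels of 5.12, 5.28, 4.78 and 4.74 in COS replicates 1 to 4 and of 4.17, 4.44, 4.49 and 4.22 in CES replicates 1 to 4. With the main scaling every CES rat lay below every COS rat, which held for 19.8% of all genes in this direction. With that scaling the median level of all genes was 0.61 to 1.30 in the COS rats and 0.37 to 0.89 in the CES rats. Whether Sox10 stays apart under other scalings was not tested. COS averaged 4.98 ± 0.26 (SD, n = 4), CES averaged 4.33 ± 0.16 (SD, n = 4), and the difference of −0.65 had a standard error of 0.18 and a 95% interval from −1.06 to −0.24 (limma, adjusted p = 0.0243). Its distance from the median gene was −0.39, and 24.6% of all genes had a lower difference. The sign held in all 26 alternatives, with differences from −0.73 to −0.25, and its distance from the median gene ran from −0.49 to −0.28. Alternatives that change only the block, the dye term or the test leave the difference itself as it was, so that its sign was fixed there. The call held in 11 of the 26 alternatives, with adjusted p from 0.00877 to 0.606. It was lost under all 4 other scalings (limma, adjusted p from 0.143 to 0.264), loess and Aquantile among them (0.164). Normexp background correction (0.606), the processed signal (0.0523), no filter on valid spots (0.0713) and a foreground of at least 3 times background (0.106) also lost it. So did leaving out COS replicate 1, 2 or 3 or CES replicate 1 (adjusted p from 0.0723 to 0.0881). The methods' t-test and either dye alone lost it too. Within the Cy3 rats the difference was −0.62 and within the Cy5 rats −0.67.

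Olig2, the basic helix-loop-helix factor that specifies the lineage, stood at −0.99, −1.25, −0.88 and −1.50 in the COS rats and at −1.42, −2.04, −0.99 and −2.08 in the CES rats. CES replicates 2 and 4, both in Cy5, lay below all COS rats, while CES replicate 3 lay among the highest of the COS values, so that the groups overlapped. The difference of −0.48 (95% interval −0.87 to −0.088) missed the threshold in limma (adjusted p = 0.0585), and relative to all genes it was −0.23. It was called lower with the processed signal (−0.84, adjusted p = 0.0156), as were 26.3% of all genes, on leaving out CES replicate 3 (−0.60, adjusted p = 0.0131), as were 32.9%, and on leaving out CES replicate 4 (−0.49, adjusted p = 0.0419), as were 31.4%. The gene was no longer quantified under the stricter filters on signal.

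Olig1, the neighboring factor of the same family that acts in maturation and repair, had levels of 6.86, 6.22, 5.73 and 5.83 in COS and of 6.08, 5.31, 6.17 and 5.99 in CES. COS replicate 1 was the highest and CES replicate 2 the lowest of the 8 rats, and the other rats of both groups were mixed. The difference of −0.27 (95% interval −0.86 to 0.31; limma, adjusted p = 0.448) was almost that of the median gene and turned to between 0.034 and 0.13 under the 4 other scalings.

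Pdgfra, the receptor through which platelet-derived growth factor A sustains precursors, had levels of 3.73, 3.48, 3.71 and 3.19 in COS and of 3.52, 2.90, 3.74 and 3.47 in CES. Except for CES replicate 2, the CES rats lay within the range of the COS rats or at its upper end. The difference was −0.12 (95% interval −0.52 to 0.28; limma, adjusted p = 0.633), and 0.14 relative to all genes. Under the 4 other scalings it was between 0.20 and 0.28, and without CES replicate 2 it was 0.0022.

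Mbp, whose product binds the cytoplasmic faces of the membrane together in compact myelin, had levels of 5.34, 5.63, 5.09 and 5.31 in COS and of 5.78, 4.81, 5.83 and 5.78 in CES. CES replicates 1, 3 and 4 lay within a narrow band above every COS rat, and CES replicate 2 lay below every COS rat. The means were 5.34 ± 0.22 (SD, n = 4) and 5.55 ± 0.49 (SD, n = 4), and the difference of 0.21 (95% interval −0.35 to 0.77) was within the spread (limma, adjusted p = 0.548). Without CES replicate 2 the difference was 0.48 (adjusted p = 0.0540), and the remaining 3 CES rats, 5.80 ± 0.027 (SD, n = 3), did not overlap with COS, as held for 7.94% of all genes in this direction.

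Mobp, a small basic protein of compact myelin, placed the rats in nearly the order that Mbp did. Its levels were 4.48, 4.76, 4.27 and 4.45 in COS and 4.94, 4.23, 5.04 and 4.69 in CES, so that CES replicate 2 was the lowest of all 8 rats and CES replicates 1 and 3 the highest. The difference was 0.23 (95% interval −0.24 to 0.70; limma, adjusted p = 0.420), or 0.49 relative to all genes, and 0.40 without CES replicate 2 (adjusted p = 0.119).

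Mog, a glycoprotein of the outermost myelin surface, varied more within the groups. Its levels were 4.58, 3.55, 3.59 and 4.03 in COS and 4.55, 3.10, 4.66 and 4.27 in CES. COS replicate 1 lay among the high CES rats and CES replicate 2 below all COS rats. The difference of 0.21 (95% interval −0.48 to 0.89; limma, adjusted p = 0.632) became 0.50 without CES replicate 2 (adjusted p = 0.125), −0.075 without COS replicate 3 and −0.019 without CES replicate 4.

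Mag, the adhesion protein of the myelin membrane that faces the axon, did not follow the other sheath genes. The levels were 5.70, 5.39, 5.02 and 5.30 in COS and 5.23, 5.28, 5.01 and 4.87 in CES, and here CES replicate 2 was the highest CES rat. The difference of −0.25 (95% interval −0.69 to 0.18; limma, adjusted p = 0.334) equaled the median of all genes, and it lay between 0.0089 and 0.15 under the 4 other scalings. Its spread in CES, an SD of 0.19, was among the smaller ones, since 10.2% of all genes had a smaller SD there.

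Cnp, an enzyme of the cytoplasmic channels in noncompacted myelin, was the most variable member. Its levels were 3.71, 2.75, 1.58 and 2.36 in COS and 4.02, 1.81, 3.96 and 3.42 in CES. COS replicate 1 lay among the 3 high CES rats and CES replicate 2 among the low COS rats. The SD was 0.89 in COS and 1.03 in CES, and 92.9% and 95.6% of all genes had a smaller one. The difference of 0.71 (standard error 0.50, 95% interval −0.40 to 1.81; limma, adjusted p = 0.295) was larger than that of 95.4% of all genes and was not called. Without CES replicate 2 it was 1.16 and was called higher (adjusted p = 0.0448), as were 8.7% of all genes, while without COS replicate 3 it was 0.16 (adjusted p = 0.801). The choice of rat therefore moved this value more than that of any other member.

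**Figure D2:**
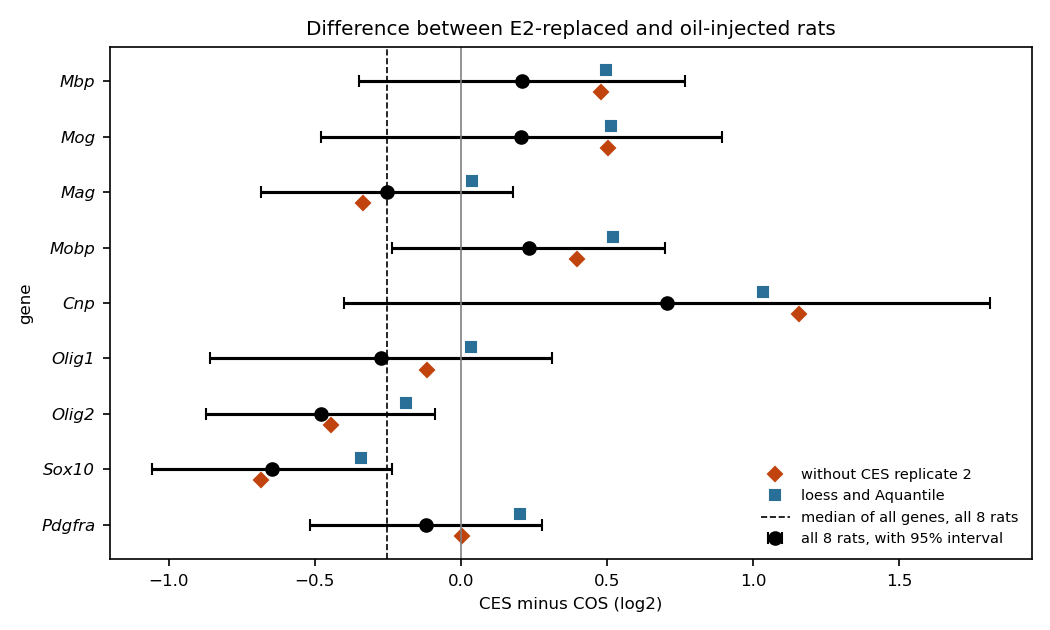
CES minus COS difference (horizontal axis, log2) of the 9 members with all 8 rats and its 95% interval (circles and bars), without CES replicate 2 (diamonds) and after loess and Aquantile normalization (squares), with the median of all genes as a dashed line at −0.25. Only the intervals of Olig2 and Sox10 leave out 0, and loess moves every member to the right of its value with median scaling, Mag, Olig1 and Pdgfra across 0.

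A single rat recurred in these values. CES replicate 2 was the lowest CES rat for 6 of 9 members and farthest from the other 3 for 6. It lay below all 4 COS rats for Mbp, Mog, Mobp, Olig1, Olig2, Pdgfra and Sox10. For Sox10 the other 3 CES rats did so too, and for Olig2 CES replicate 4 did. The share of all genes with this rat below all COS rats was not counted. With the main scaling its median level over all genes, 0.54, was also below those of all COS rats, 0.61 to 1.30. That of CES replicate 4, 0.37, was lower still. Among the 29 quantified genes of the list of other myelin sheath and mature oligodendrocyte genes CES replicate 2 was the lowest CES rat for 21 (72.4%), and over all genes for 43.8%. It was not the rat that stood apart most over all genes, since it was farthest from the other 3 of its group in 31.3% of genes, CES replicate 3 in 35.5% and COS replicate 4 in 52.3%. Of the genes called in the main test, CES replicate 2 was the CES rat nearest to the COS mean for 53.6%. It was labeled with Cy5, and within the Cy5 rats alone the differences of Mbp, Mobp and Mog were −0.17, −0.15 and −0.10, against 0.59, 0.61 and 0.52 within the Cy3 rats. Without this rat, 1 of 9 members was called higher and 1 lower, where 8.7% and 32.8% of all genes were. What sets it apart was not tested.

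**Figure D3:**
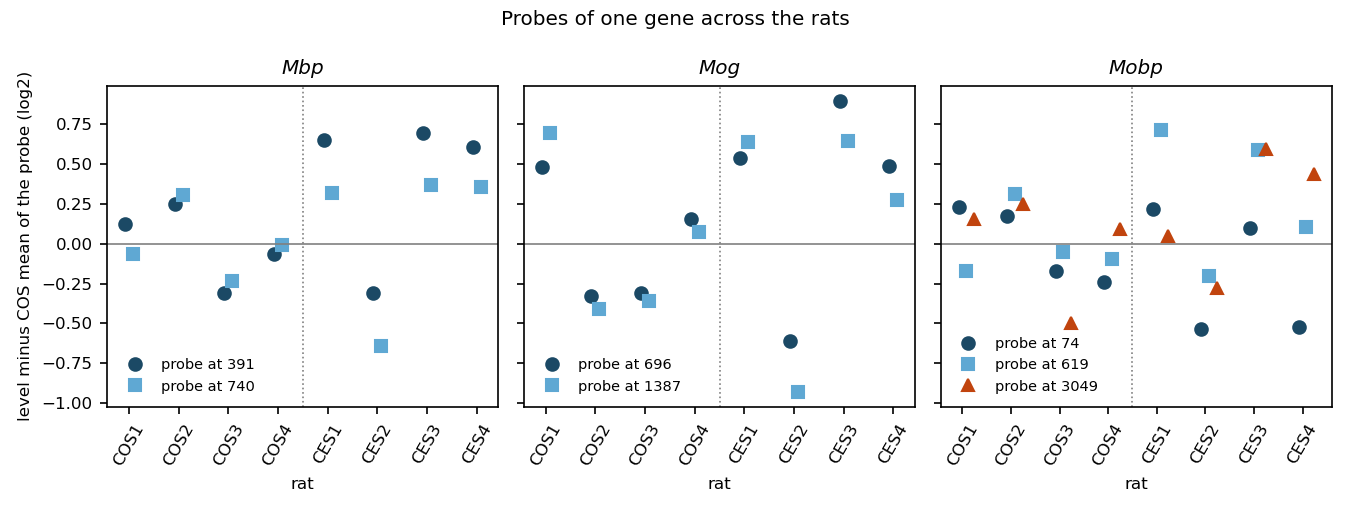
Level of each probe of Mbp, Mog and Mobp in the 8 rats (horizontal axis) minus the mean of that probe in COS (vertical axis, log2), with probes marked by their start in the transcript. All 7 probes have CES replicate 2 below the COS mean, and the Mobp probe at base 74 has CES replicate 4 low as well.

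On both probes of Mbp and both of Mog, CES replicates 1, 3 and 4 lay above the COS mean of the probe and CES replicate 2 below it, while the 3 probes of Mobp differed among themselves. For Mbp the difference was 0.41 at base 391 and 0.10 at base 740, and for Mog it was 0.33 at base 696 and 0.16 at base 1387. For Mobp it was −0.18 at base 74, 0.30 at base 619 and 0.20 at base 3049, and none of the 7 probes was called by limma over all probes. CES replicate 2 was below the COS mean on all 7 probes. Without this rat, in a fit added after the values were seen, the Mbp probe at base 391 was called higher (0.67, adjusted p = 0.0169), as were 8.39% of all probes, and the other 6 were not.

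Other genes of the lineage, together with ligands and receptors that act on it, were taken from a list of 68. Of these, 63 were on the array and 61 were quantified. Of the 61, 9 were called higher and 16 lower, against 5.79% and 28.3% of all genes, with a median difference of −0.17. The ligands and receptors gave 1 of the higher and 5 of the lower calls. After loess and Aquantile normalization 9 of the 61 were called higher and 6 lower. Of the calls in the main test, 7 of the 9 higher and 4 of the 16 lower ones were also called in the same direction under all 4 other scalings, among them Anln, Ermn, Nxph1, Omg, Plekhb1 and Rtn4r of the higher and Cryab, Klk6, Pdgfrb and Vcan of the lower genes. The plot of the gene groups shows the differences by group, and differences between the groups were not tested. The counts by group that follow are read against the same 28.3% lower and 5.79% higher, or, after loess, 8.87% and 14.2%.

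**Figure D4:**
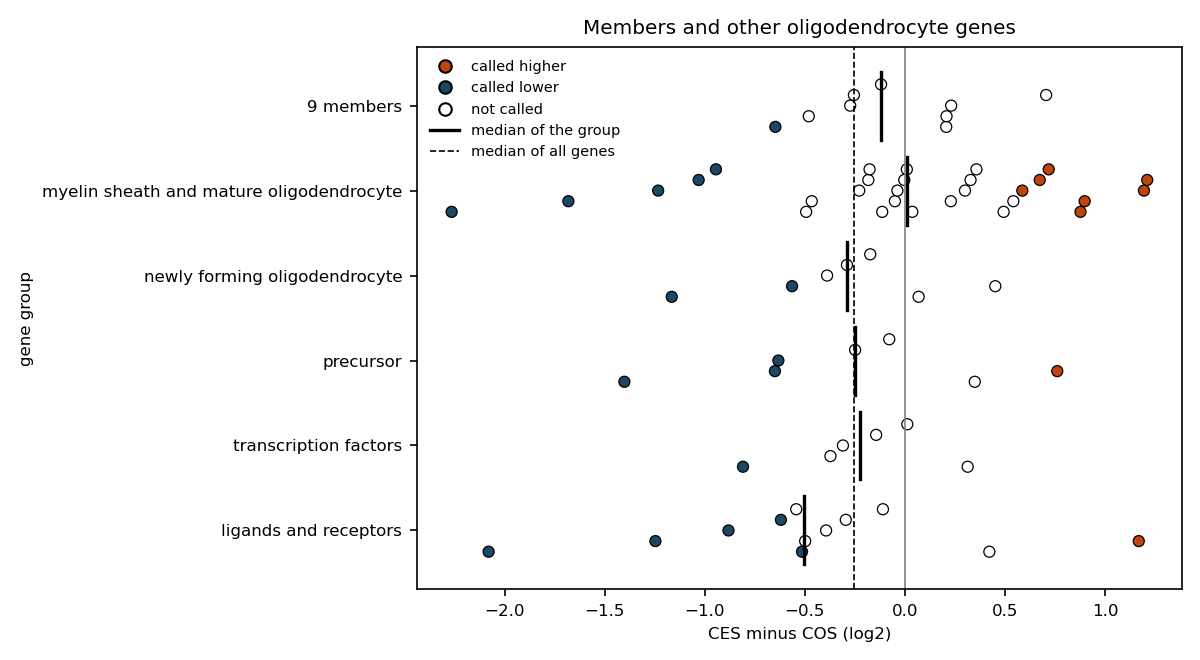
CES minus COS difference (horizontal axis, log2) of the 9 members and of the 61 other quantified genes by group (vertical axis), filled where limma called the gene higher or lower, with the median of each group as a bar and of all genes as a dashed line at −0.25. The myelin sheath group spreads to both sides, with 7 genes called higher and 5 lower, and the ligands and receptors have a median of −0.51.

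In the group of myelin sheath and mature oligodendrocyte genes, 7 of 29 were called higher and 5 lower, which became 5 and 3 after loess, with a median of 0.0098, or 0.26 above that of all genes. Omg, a myelin glycoprotein that binds the Nogo receptor, had 2.96, 2.60, 2.92 and 2.70 in COS and 4.18, 3.17, 4.39 and 4.22 in CES. All CES rats lay above all COS rats for Omg, as for 1.61% of all genes and for none of the members, and the rise was 1.19 (standard error 0.23; limma, adjusted p = 0.00579). Mal, a proteolipid of compact myelin, had 2.57, 1.97, 1.33 and 1.92 in COS and 3.69, 1.71, 3.87 and 3.36 in CES, and its difference of 1.21 was just called (adjusted p = 0.0443) although CES replicate 2 lay within the COS range, and it was not called under the 4 other scalings.

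Ermn, a cytoskeletal protein of mature oligodendrocytes, rose by 0.90 (adjusted p = 0.0220), and Anln, which scaffolds septin filaments, by 0.88 (adjusted p = 0.0174), both by limma. For Ermn and Anln the group ranges overlapped only through CES replicate 2. In the opposite direction, Cryab, a small heat shock protein, had 7.84, 8.12, 7.79 and 7.61 in COS and 4.86, 6.76, 5.56 and 5.12 in CES, a fall of 2.26 (limma, adjusted p = 0.00390). Klk6, a secreted serine protease, had 5.82, 5.77, 5.77 and 5.73 in COS and 3.56, 5.15, 3.88 and 3.78 in CES. Klk6 varied little among the COS rats and was lower in every CES rat, by 1.68 on average (limma, adjusted p = 0.00484). Cd9, a tetraspanin, fell by 1.23 (limma, adjusted p = 0.0148), but was not called under any of the 4 other scalings. Astrocytes also express Cryab and Cd9. What part of the level of any gene of the list comes from oligodendrocytes was not tested, and this holds for those called higher as well.

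Precursor genes were called in both directions, 1 of 7 higher and 3 lower, and 2 and 1 after loess. Cspg4, the NG2 proteoglycan of precursors and pericytes, had 3.75, 3.02, 4.04 and 3.13 in COS and 2.59, 2.50, 3.41 and 2.83 in CES. The ranges overlapped through CES replicate 3, and the difference of −0.65 was just called (limma, adjusted p = 0.0446) and not called under the 4 other scalings. Vcan, a matrix proteoglycan, had no overlap, with 1.05 to 1.71 in COS and −0.28 to 0.37 in CES and a fall of 1.40 (limma, adjusted p = 0.00410). Nxph1, a secreted ligand of neurexins, rose by 0.76 (limma, adjusted p = 0.0106). Of the newly forming oligodendrocyte genes, 2 of 7 were called lower and 0 higher, and none in either direction after loess.

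Of the other transcription factors, 1 of 6 was called lower and 0 higher, and none after loess. Nkx2-2, a homeodomain factor of the lineage, had a difference of −0.37 (limma, adjusted p = 0.116). Myrf, the factor that directs myelin gene expression after SOX10, had 1 spot, valid in 7 rats, and was therefore not quantified. Among 12 ligands and receptors, 1 was called higher and 5 lower, and 2 and 2 after loess, with a median of −0.51, or −0.25 relative to all genes. Pdgfa, the ligand of Pdgfra, had a difference of −0.30 (limma, adjusted p = 0.223), and Pdgfrb, the receptor of pericytes, fell by 1.25 (limma, adjusted p = 0.00374) with no overlap. Ngfr, the low-affinity neurotrophin receptor, had 0.88, 0.79, 0.76 and 0.37 in COS and −1.76, −0.13, −1.03 and −2.60 in CES, a fall of 2.08 (limma, adjusted p = 0.00812). Ngfr was well above background in 3 of 4 CES rats and was not quantified where all rats had to be. Its difference ran from −2.70 with the processed signal to −1.14 with normexp background correction, where it was not called (adjusted p = 0.0964), nor was it with scaling over shared valid spots (adjusted p = 0.0526). Rtn4r, the Nogo receptor to which OMG and MAG bind, had 2.79, 2.74, 3.26 and 2.44 in COS and 4.18, 3.03, 4.53 and 4.15 in CES, a rise of 1.17 (limma, adjusted p = 0.00905).

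Calls among the markers of other cells are given against 28.3% of all genes called lower and 5.79% higher, or 8.87% and 14.2% after loess and Aquantile normalization. Summed levels add the markers on the linear scale before log2, with the main scaling only. Whether their ranges in COS and CES keep apart or overlap under other scalings was not tested. The brightest markers of a list therefore weigh most, such as C1qa for microglia (COS mean 5.40). Of the 8 microglia markers 4 were called lower and 1 higher, which became 1 and 1 after loess, and their summed log2 level was 6.10 to 6.77 in COS and 5.30 to 6.03 in CES. Of 6 interneuron markers 3 were called lower, and after loess 2 lower and 1 higher, with a summed level of 8.42 to 9.11 in COS and 6.65 to 8.24 in CES, where CES replicate 2 had the highest CES value. That sum was mostly Npy and Sst, with COS means of 7.58 and 7.51, both called lower in the main test. Of the others, Vip was called lower, and Gad1 (−0.57), Gad2 (−0.58) and Pvalb (0.51) were not called. The 8 astrocyte markers gave 3 higher and 1 lower, and 3 and 0 after loess, with overlapping sums of 7.52 to 7.66 and 7.31 to 7.99. Of the 7 pericyte and fibroblast markers, 2 were called higher and 3 lower, and 2 and 1 after loess, with summed levels of 4.56 to 5.37 and 4.45 to 5.03. The granule cells are the principal neurons of the DG, and of their 5 quantified markers Neurod1 was called higher, with a difference of 1.16 (limma, adjusted p = 0.00515), and C1ql2 (−1.23, adjusted p = 0.0104) and Dsp (−1.24, adjusted p = 0.00699) lower, with overlapping sums of 4.03 to 4.89 in COS and 4.24 to 4.66 in CES. Of 5 pan-neuronal markers Syt1 was called higher and Nefl lower, with sums of 8.47 to 8.90 and 8.46 to 8.78, and of 5 endothelial markers Slco1a4 was called higher and Flt1 and Tek lower, with sums of 4.30 to 4.71 and 4.10 to 4.65. For each of these 3 lists loess called 1 marker higher and 1 lower. Their part in the values of Sox10, Pdgfra, Cspg4 and Pdgfrb was not tested.

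Schwann cells, the myelinating cells of peripheral nerve, also express Mbp, Mag, Cnp and Sox10. Of the Schwann cell markers, Prx and Pmp2 were not valid in all rats and were well above background in at most 3 COS rats and 1 CES rat, and Pmp22 was quantified and fell by 0.61 (limma, adjusted p = 0.0284), a call that was lost after loess. Choroid plexus RNA differed between rats with overlapping groups. Its summed level over 4 quantified markers, most of it from Ttr, was 3.98 to 7.58 in CES. In COS it was 3.69 to 9.26, and replicate 2 was the highest. Enpp2, an enzyme of oligodendrocytes and of the choroid plexus, was high in the same rat, 6.86 against 4.27 to 4.50 in the other COS rats, and its difference of 0.30 was not called.

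The promoter of Mobp is shown for the letters to which SOX factors such as SOX10 bind, because it held the most matches of the members. These letters were searched because Sox10 was the member called lower in the main test. A link between Sox10 and Mobp was not tested, and the difference of Mobp was 0.23 and not called. RefSeq start sites on GRCr8 were available for 6 of the 9 members, Mag, Mobp, Cnp, Olig2, Pdgfra and Mbp, the last with 2. The 250 bases before each start were searched on both strands for ACAAAG and ACAATG, and 25.3% of 33469 promoters held at least 1 match. Matches numbered 8 for Mobp, 1 for Mag, 1 for Cnp, 0 for Olig2 and Pdgfra, and 0 and 3 for the 2 starts of Mbp. Of all promoters searched, 2 held 8 or more, Mobp included, a cut taken from the count of Mobp itself. The matches of Mobp recur at short intervals. A match is a description of the sequence and not of binding. The 250 bases before the start of Mobp (chr8:128746982-128747231, plus strand) are given 5′ to 3′ with the matches, all of the reverse complement CTTTGT, in capitals.
Mobp: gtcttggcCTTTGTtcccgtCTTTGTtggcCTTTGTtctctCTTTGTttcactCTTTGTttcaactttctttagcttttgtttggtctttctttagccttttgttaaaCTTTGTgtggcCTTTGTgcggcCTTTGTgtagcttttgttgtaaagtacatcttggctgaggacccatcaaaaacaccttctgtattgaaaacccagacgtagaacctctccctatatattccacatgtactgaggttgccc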

How the data were processed

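The authors deposited a scanner file per rat, in which Agilent Feature Extraction 10.7.3.1 gives the foreground and background intensity of each spot, together with log2 values whose columns equal the scanner signal of each channel up to a constant. Cy3 marked replicates 1 and 3 and Cy5 replicates 2 and 4 of each group. A spot was valid where the mean foreground was at least 2 times the background, and 27642 spots were valid in all 8 rats (30690 to 38553 per rat). The mean signal minus background was divided by the channel's median over valid spots, averaged per gene and converted to log2. Genes were named through RefSeq accessions (GRCr8) for 17512 of 41012 probes, otherwise as in the files. The groups were compared in R 4.3.3 by limma 3.58.1, with a fixed dye term and a random array block (duplicateCorrelation, statmod 1.5.0; data.table, version 1.17.8). The tests were two-sided and the p-values were adjusted over all genes by Benjamini-Hochberg. The median standard error was 0.20, and the number of arrays limits the precision. Tested on simulated data of this layout with 200 changed genes of 21372, the test found 90% of changes of 2 and 53% of changes of 1 on the log2 scale, with 13 false calls among 156. The simulation had no scaling step and drew the error of each gene separately. The data themselves gave 5.79% of genes called higher and 28.3% lower, so that these rates need not hold for them. Rats with the same number deviated together (correlations 0.21 to 0.34), where a shared number is also a shared dye, and after removal of the dye they did not (−0.06 to −0.04).

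The members and gene lists were chosen with earlier results of these data known. Genes named from the other list are the 6 largest called differences in each direction and Myrf, Cspg4, Pdgfa and Nkx2-2, and further names serve to complete a count. Some genes of the lists are counted but not reported singly here. Alternatives changed the background correction, scaling, filters, block, dye term, probe, names, test or rats, and the closing section gives their effect. Positions are those of the files (rn4). Tables and figures used Python 3.11.15, numpy 2.4.6, pandas 2.3.3 and matplotlib 3.10.9.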

Additional observations from a re-analysis of the deposited data

Results flagged for a closer look

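Among 48 groups of 4 rats, the values of the 9 members and of the 15 named other genes in COS and CES, 2 had a rat whose distance to its nearest neighbor took more of the range of the group than Dixon's 95% limit for 4 values allows, which chance exceeds in about 1 in 20 groups. Both concern CES replicate 2. Its Mbp level was 4.81 against 5.78 to 5.83 in the other CES rats, a gap of 0.951 of the range. Its Omg level was 3.17 against 4.18 to 4.39, a gap of 0.831 of the range.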

How the results depend on the processing

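Of 232 values of single members under the alternatives, 194 kept their direction and their side of the threshold, 15 lost a call, 4 gained one and 19 changed sign, and of 388 values of the named other genes these numbers were 292, 89, 1 and 6. Alternatives that change only the block, the dye term or the test leave the differences as they were, so that no direction could change there. The 9 members were called lower in 0 cases with normexp background correction, after loess and Aquantile, after quantile normalization, with scaling over shared valid spots, without the filter on valid spots, with the stricter foreground (at least 3 times background), by the methods' t-test, with the deposited log2 values and in the Cy3 or Cy5 rats alone, where limma gave 1. At an unadjusted p under 0.05 the methods' t-test had 6114 genes and 1 member, and limma 9657 and 2.

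Over the whole array, normexp correction gave 123 genes higher and 454 lower, loess 3045 and 1896, quantile normalization 3059 and 2226, scaling over shared valid spots 3352 and 1720, and the deposited log2 values 3285 and 1936. Without the filter it was 529 and 3551, with the stricter foreground 2835 lower, by the methods' t-test 0 and 0, in the Cy3 rats 750 higher and in the Cy5 rats 0 and 2. Without spots marked as outliers it was 1195 and 5957, and no member value moved. Of the other oligodendrocyte genes, 1 was called higher and 2 lower with normexp, 3 and 9 without the filter, 5 and 7 with the stricter foreground and 0 and 0 by the methods' t-test and in the Cy5 rats, while loess called 6 lower, quantile normalization 5, shared valid spots 4 and the deposited log2 values 5.

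The median difference of the members was 0.20 after loess, 0.20 after quantile normalization, 0.28 with shared valid spots and 0.26 with the deposited log2 values, whereas relative to all genes these 4 scalings left it between 0.14 and 0.15. It was 0.16 with the stricter foreground, 0.044 where all rats had to be well above background, both without Olig2, and 0.050 with normexp, and relative to all genes 0.32, 0.34 and 0.19. Under loess, quantile normalization, shared valid spots and the deposited log2 values in turn, Mag became 0.036, 0.0089, 0.15 and 0.13, Olig1 0.034, 0.041, 0.13 and 0.13, Pdgfra 0.20, 0.20, 0.28 and 0.26, and Pdgfa 0.028, 0.025, 0.10 and 0.11, and Nkx2-2 was 0.028 and 0.0030 under the last 2. Pdgfra was 0.050 with normexp. In the Cy5 rats alone Mbp was −0.17, Mog −0.10 and Mobp −0.15. The cause of these changes was not tested.

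On leaving out 1 rat at a time, members called ran from 0 to 1 higher and 0 to 2 lower, other oligodendrocyte genes from 0 to 11 and 5 to 20, and all genes from 262 to 1860 and 932 to 7029, the lowest of these without COS replicate 3. The median of the members ran from −0.17 to 0.0022, and relative to all genes from 0.085 to 0.28. Mog ran from −0.075 without COS replicate 3, and −0.019 without CES replicate 4, to 0.50 without CES replicate 2, and Pdgfra from −0.26 without CES replicate 4 to 0.0022 without CES replicate 2, where its probe had 0.0022. With the replicate number as a block, 1077 genes were called higher and 6147 lower, Sox10 stayed the 1 member called (adjusted p = 0.0282), and of the other list 6 were called higher and 16 lower. Olig2, close to background, was not quantified with the stricter foreground or where all rats had to be well above background.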
